A study of Mus musculus with 5 samples.

Results

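The islet hormone genes Ins1, Ins2, Gcg, Sst, Ppy, Pyy, Iapp and Ghrl were taken by name, and 7 of these 8 were measured, among 19938 genes on the array. Each of the 7 was read by 1 probe set, a group of probes for 1 gene, found through its gene symbol in the platform's annotation. Ins1 was not named there and was not analysed here, and 0 probe sets with several symbols held Ins1 or Ins2. The pancreata came from mice at postnatal day 1 and were measured with 1 Mouse Gene 1.0 ST array for each mouse. The control group was 2 mice described as not recombined, and the Pdx1cKO group was 3 mice in which a Cre recombinase under the Elastase promoter deletes loxP-flanked Pdx1. This Cre acts in exocrine cells, so the endocrine cells that make the hormones are not targeted and should keep their own Pdx1, and the labels do not say which alleles the control mice carried. The title of the series speaks of 1 litter for both groups, while the labels of the single mice name none. The comparison asked how far the endocrine transcripts of the organ differed when Pdx1 was deleted in the exocrine tissue beside them.

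Each hormone marks a cell type of the islet. Beta cells make insulin, which lowers blood glucose, and release with it islet amyloid polypeptide, encoded by Iapp. Mice have 2 insulin genes, Ins1 and Ins2, whose transcripts are alike, so probes for Ins2 may also read Ins1. Alpha cells make glucagon from Gcg and delta cells make somatostatin from Sst, which restrains the other islet cells. PP cells make pancreatic polypeptide from Ppy, Pyy encodes peptide YY, a relative of it, and ghrelin from Ghrl marks epsilon cells of the developing islet. Several of these genes are active outside the pancreas as well: Sst, Pyy, Ghrl and Gcg in endocrine cells of stomach or gut, and Sst also in neurons.

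The deposited intensities were already on a common scale, with medians of 61.0 to 61.9 in the 5 arrays. Pdx1, the targeted gene, gave 67.9 and 112.7 for control tissue, against 48.4, 48.4 and 42.9 for Pdx1cKO pancreata (limma log2 fold change -0.91, standard error 0.255, adjusted p = 0.385), a weak check of the labels, since the probes may lie outside the deleted part. Control 2 also carried transcripts of stomach, with a list median intensity of 639 against 46.8 in control 1. The Y-linked gene Eif2s3y was at 106.8 or above in both controls and in Pdx1cKO mouse 3, and at 22.4 and 24.9 in Pdx1cKO mice 1 and 2, so this sex-linked pattern was not the same across the mutants. For several hormones, values without control 2 or with Pdx1cKO mouse 3 as the only mutant are also given below.

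The beta cell transcripts were lower in every Pdx1cKO pancreas than in either control, by the smallest amounts of the 7 hormones. Ins2 (probe set 10569358) gave 701 and 714 for control mice 1 and 2, against 522, 539 and 455 for mutants 1, 2 and 3. The controls lay close together and the groups did not overlap. The log2 fold change was -0.49 (standard error 0.0883, 95% confidence interval -0.74 to -0.24), which is 71.2% of the control level, with a limma adjusted p = 0.264. Iapp (probe set 10542632) gave 970 and 1133 for control tissue, and 845, 675 and 612 for the mutants. Its groups came nearest to overlapping, since Pdx1cKO mouse 1 lay 0.20 below control 1 on the log2 scale. The log2 fold change of Iapp was -0.57 (standard error 0.178, 95% confidence interval -1.09 to -0.06, limma adjusted p = 0.427). It was -0.69 without control 1 and -0.46 without control 2, while that of Ins2 was -0.50 and -0.48. In whole pancreas, fewer cells of a type and less transcript per cell cannot be told apart.

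Glucagon, somatostatin and ghrelin transcripts were at less than 50% of the control level. Gcg (probe set 10483074) read 2594 and 2650 in control pancreas, against 1508, 1127 and 1104 in mutants 1, 2 and 3, or 47.0% of control. Pdx1cKO mouse 1 stood above the other 2 mutants, and all 3 were well under the controls. The log2 fold change was -1.09 (standard error 0.170, 95% confidence interval -1.58 to -0.60, limma adjusted p = 0.236). Sst (probe set 10438730) read 1111 and 1141 in control pancreas, against 533, 606 and 439 in the mutants. Here mouse 2 was the highest mutant and the order of mice 1 and 2 was the opposite of that for Gcg. The log2 fold change of Sst was -1.11 (standard error 0.158, 95% confidence interval -1.56 to -0.66, limma adjusted p = 0.228). Ghrl (probe set 10546962) had a low signal, with 148 and 136 for control tissue against 63.7, 69.2 and 58.3 for the mutants, which were near the array median. Its log2 fold change was the most negative of the 7, at -1.16 (standard error 0.0929, 95% confidence interval -1.43 to -0.89), with a limma adjusted p = 0.183.

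The genes of the pancreatic polypeptide family, Ppy and Pyy, which have 0 annotated genes between them on chromosome 11 in RefSeq's GRCm38.p6, were lower as well. Ppy (probe set 10391555) gave 1179 and 818 for control mice 1 and 2, and 617, 566 and 434 for mutants 1, 2 and 3. The controls were further apart than for any other hormone (SD of 0.372 on the log2 scale, n = 2). The log2 fold change of Ppy was -0.88 (standard error 0.251, 95% confidence interval -1.60 to -0.16, limma adjusted p = 0.394). It was -0.62 without control 1 and -1.14 without control 2, so the size rested on which control was kept. Pyy (probe set 10391561) read 1137 and 952 in control pancreas, against 585, 519 and 407 in the mutants, in the same order of mice as Ppy. Its log2 fold change was -1.06 (standard error 0.199, 95% confidence interval -1.64 to -0.49, limma adjusted p = 0.272).

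**Figure D1:**
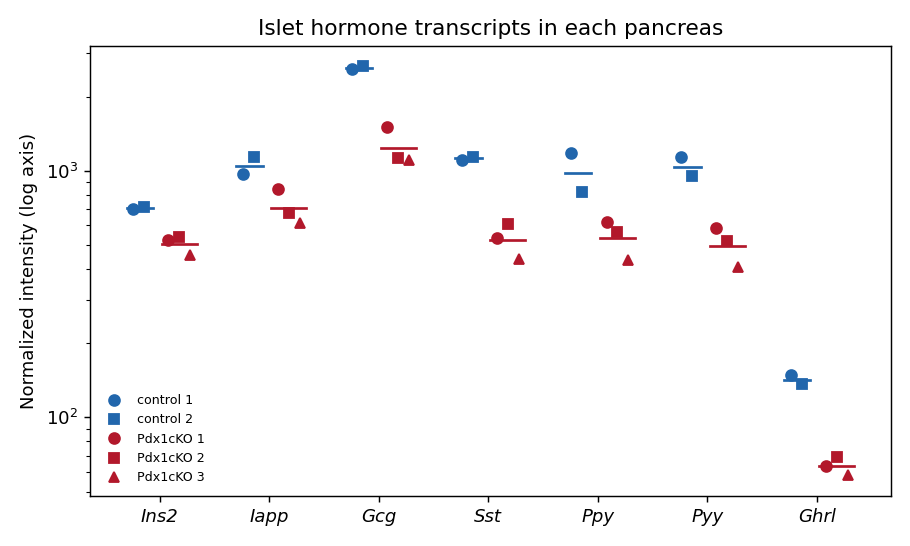
Normalized intensity (log axis) of the 7 measured hormones in each of the 5 arrays (control in blue, Pdx1cKO in red, 1 symbol per mouse number, lines for geometric means). All red points lie below the blue points of the same gene, and the gap is widest for Ghrl (0.98 on the log2 scale between the nearest values) and narrowest for Iapp (0.20).

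Over the family, 7 of 7 hormones were lower without overlap between the groups, against 11.7% of all genes, and 7 of 7 had a limma unadjusted p under 0.05 with a lower level, against 5.04% of all genes. After Benjamini-Hochberg adjustment over the 19938 genes 0 hormones passed at 0.05, as for every other gene on the array (0% in either direction, while without adjustment 1005 genes, 5.04%, passed with a lower level and 1054, 5.29%, with a higher one, and 12% of all genes were higher without overlap). The median log2 fold change of the hormones was -1.06, against -0.0012 over all genes. The count at an unadjusted p was 4 without control 1, where the share over all genes was 15.1%, and 5 without control 2, where it was 18.5%, the spread then coming from the mutants alone. With array weights, which gave each control a weight of 0.21, it was 1 (Ghrl), where the share over all genes was 1.96%. Set against the controls alone, Pdx1cKO mouse 3, the mutant with their Y-linked pattern, had hormone log2 fold changes of -1.36 (Sst) to -0.64 (Ins2).

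The upstream sequences of 7 of the 8 genes were in the RefSeq promoter table (GRCm38.p6), and Ins2 had no entry. They are shown for Sst, Iapp, Gcg and Ppy, each with 1 annotated start, because Pdx1 is known to bind sites with a TAAT core in the promoters of Sst, Iapp and the insulin genes. Each window holds the 250 bases before the transcript start, 5′ to 3′ on the gene's strand. Capitals mark the core TAAT wherever it occurs on either strand. They also mark CTAATG, a form of the A-box of insulin promoters that contains this core, and the cyclic AMP response element TGACGTCA.
Sst, chr16:23890845-23891094, minus strand: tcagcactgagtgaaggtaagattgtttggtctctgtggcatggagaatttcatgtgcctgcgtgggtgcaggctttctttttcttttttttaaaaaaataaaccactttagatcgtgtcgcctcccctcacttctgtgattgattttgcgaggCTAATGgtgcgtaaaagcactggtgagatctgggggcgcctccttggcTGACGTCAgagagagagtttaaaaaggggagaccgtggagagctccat
Iapp, chr6:142298175-142298424, plus strand: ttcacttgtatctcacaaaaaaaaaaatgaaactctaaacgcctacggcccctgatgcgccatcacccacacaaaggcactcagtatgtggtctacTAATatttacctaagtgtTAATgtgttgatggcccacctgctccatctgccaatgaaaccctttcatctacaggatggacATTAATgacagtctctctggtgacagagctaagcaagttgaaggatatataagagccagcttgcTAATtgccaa
Gcg, chr2:62483654-62483903, minus strand: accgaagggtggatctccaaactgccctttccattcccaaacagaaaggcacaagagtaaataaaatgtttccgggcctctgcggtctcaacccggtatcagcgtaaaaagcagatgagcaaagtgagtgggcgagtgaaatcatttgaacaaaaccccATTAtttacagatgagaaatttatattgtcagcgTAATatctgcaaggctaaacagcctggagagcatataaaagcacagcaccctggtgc
Ppy, chr11:102101320-102101569, minus strand: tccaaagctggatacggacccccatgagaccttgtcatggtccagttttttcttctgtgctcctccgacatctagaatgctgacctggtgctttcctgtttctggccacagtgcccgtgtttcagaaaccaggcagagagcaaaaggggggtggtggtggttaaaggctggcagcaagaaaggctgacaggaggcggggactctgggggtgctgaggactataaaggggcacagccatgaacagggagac
The Sst window held CTAATG starting 96 bases before the start and TGACGTCA starting 48 bases before it. Among all 32851 windows of this length CTAATG was in 6.36% and TGACGTCA in 1.55%. TAAT was present 5 times in the Iapp window, where 2 of the matches overlapped, 2 times in Gcg, 1 time in Sst, inside CTAATG, and 3 times in that of the unmeasured Ins1. The windows of Ppy, Pyy and Ghrl held 0, and 54.9% of all windows held at least 1. The hormones with TAAT in the window included both a smaller difference (Iapp, -0.57 on the log2 scale) and larger ones (Sst, -1.11, and Gcg, -1.09), and those without it ran from -0.88 (Ppy) to -1.16 (Ghrl). A link between these sites and the differences was not tested. A match is only a stretch of letters, and binding was not measured.

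Ratios of 2 hormones within the same array do not depend on a scaling factor of that array, and were compared for all 21 pairs. Since probe sets differ in brightness, only the change of a ratio between arrays was read. Relative to Sst, Ins2 was higher in the Pdx1cKO pancreata by 0.64, 0.50 and 0.72 on the log2 scale in mice 1, 2 and 3, while the controls differed by 0.012. The mean change was 0.62. Relative to Ghrl, Ins2 was higher by 0.72, 0.64 and 0.65, relative to Gcg by 0.36, 0.83 and 0.61, and relative to Pyy by 0.39, 0.61 and 0.72. In each of these 4 ratios all 3 mutants lay above both controls, so Ins2 was lower by a smaller amount than each of these hormones within the same mouse. Relative to Ppy, where the controls differed by 0.55, the groups overlapped (mean change 0.39).

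Iapp, the other beta cell product, had a mean change near that of Ins2, but mutants 1 and 2 stood in the opposite order. The Ins2 to Iapp ratio was 0.10 and -0.10 in the controls, relative to their mean, and -0.13, 0.24 and 0.14 in the Pdx1cKO mice, so the groups overlapped, with a mean change of 0.08. Over the mutants this ratio had a range of 0.37, wider than that of Ins2 to any other hormone except Gcg (0.47). Gcg relative to Iapp was lower by -0.49, -0.58 and -0.47 in mice 1, 2 and 3, and Sst relative to Iapp by -0.77, -0.26 and -0.58, both without overlap. Pyy relative to Iapp had a mean change of -0.49 and Iapp relative to Ghrl one of 0.59, again without overlap. Among Gcg, Sst, Pyy and Ghrl, by contrast, every ratio overlapped between the groups, with mean changes of -0.05 (Sst to Pyy) to 0.10 (Pyy to Ghrl). The Gcg to Sst ratio ran from -0.32 in Pdx1cKO mouse 2 to 0.28 in mouse 1, and differences within that range were not detectable with these mice. Ppy relative to Pyy had a mean change of 0.18 and did not overlap, but the mutants (0.16 to 0.21) lay just above control 1 (0.14).

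Of the 21 pairs, 9 did not overlap, and 7 reached 0.1, the smallest p that an exact permutation test of 2 against 3 mice allows (two-sided). The pairs are built from the same 7 hormones and are not independent. All of the 9 except Ppy to Pyy set Ins2 or Iapp against Gcg, Sst, Pyy or Ghrl. The share without overlap among pairs of all genes was not computed, so the count has no background. After Benjamini-Hochberg adjustment over the 21 pairs the smallest value was 0.3, so no ratio could pass a threshold of 0.05 in this design. The 9 ratios without overlap kept their sign in all 72 values under the alternatives. These were the brightest probe set, quantile normalization, leaving out each mouse in turn, and Pdx1cKO mouse 3 alone against the controls. Only quantile normalization could have changed a sign. Where groups do not overlap, leaving out mice cannot, and each hormone had a single probe set. The size of several of the 9 ratios depended on which control was kept. Pyy relative to Iapp was at -0.25 without control 1 and -0.73 without control 2, and Ppy relative to Pyy at 0.32 and 0.05. Iapp relative to Ghrl was at 0.41 without control 1 and 0.76 without control 2, and Ins2 relative to Pyy at 0.43 and 0.72.

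**Figure D2:**
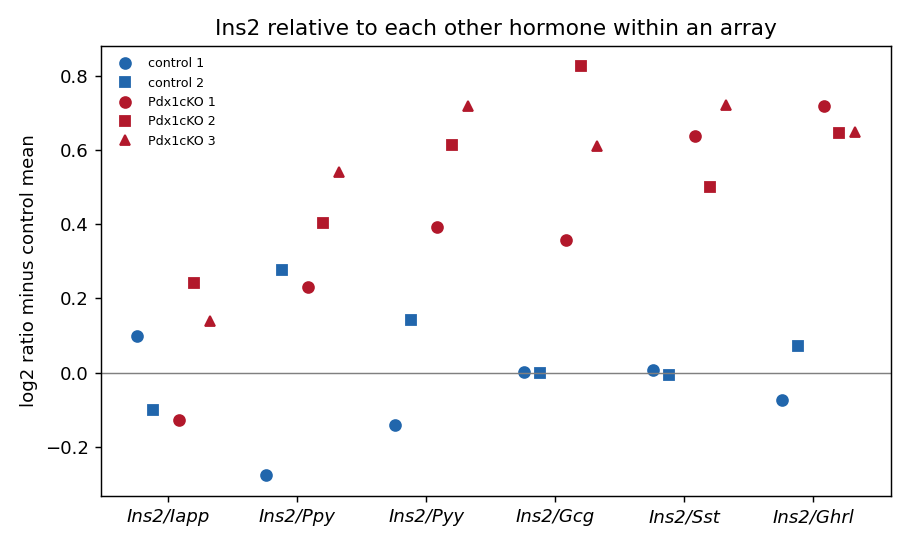
Log2 ratio of Ins2 to each other hormone within an array, minus the mean of the controls (control in blue, Pdx1cKO in red, 1 symbol per mouse number). The red points lie above the blue ones for Pyy, Gcg, Sst and Ghrl, at 0.36 to 0.83, and are mixed with them for Iapp.

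Genes listed as shared by endocrine cells had median log2 fold changes nearer to 0 than that of the hormones. Of 13 measured genes of the secretory granule, where hormones are cleaved from their precursors and stored, 0 passed after adjustment, 5 had a lower level and 0 a higher one at an unadjusted p under 0.05, and 7 were lower without overlap. Over all genes, 5.04% were lower and 5.29% higher at that p, and 11.7% were lower without overlap. Their median log2 fold change was -0.31. Scg2, a granin of the granule, read 123 and 110 in control pancreas, against 83.3, 85.4 and 83.1 in the mutants (log2 fold change -0.47, limma adjusted p = 0.197). Slc30a8, which carries zinc into the insulin granule, was at 126 and 133 against 94.8, 83.6 and 77.5 (log2 fold change -0.61, limma adjusted p = 0.240). Named after their values were seen, the other 3 of the 5 were Ptprn2 at -1.22, Scg3 at -0.84 and Chga at -0.82. Pcsk1, the convertase that cuts proinsulin, was at -0.43 and Cpe, which trims the cut ends, at -0.18, and both were also chosen after their values were seen.

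Of 9 transcription factors listed as shared by endocrine cells, 4 were lower and 0 higher at an unadjusted p, against 5.04% and 5.29% of all genes. Without overlap 5 were lower, against 11.7% of all genes, and the median log2 fold change was -0.38. Nkx2-2 read 82.5 and 72.0 in control pancreas, against 50.1, 53.0 and 49.96 in the mutants (log2 fold change -0.60, limma adjusted p = 0.205). Pax6, which activates several hormone genes, was at 84.0 and 76.6 against 59.6, 56.3 and 58.2 (log2 fold change -0.47, limma adjusted p = 0.191). Nkx2-2 and Pax6 were near the array median, while Myt1 (39.0 in all 5 arrays) and Mnx1 (26.0 to 30.7) were well below it. Without detection calls the background of these factors is unknown, so their list median may include genes without signal. The factors of single hormone cells numbered 8, with 3 lower at an unadjusted p, against 5.04% of all genes, and a median log2 fold change of -0.12. The 3 were Pdx1, the targeted gene itself, Nkx6-1 and Irx2. Of these, Nkx6-1, a factor of beta cells, had -0.27 (limma adjusted p = 0.411).

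Each hormone was also set against the median of the 13 granule genes in the same array. Relative to it, Gcg had a mean change of -0.40, Pyy of -0.37 and Ghrl of -0.47 on the log2 scale, without overlap between the groups. Sst (-0.42), Ppy (-0.19), Ins2 (0.20) and Iapp (0.12) overlapped. For Gcg, Pdx1cKO mouse 1 (-0.19) lay only just below control 1 (-0.18). The exact permutation p (two-sided) was 0.2 to 0.6, so a difference between a hormone and the granule genes was not shown. The median level of these genes had itself a mean change of -0.69, and their mean log2 level one of -0.39. Against the median of the 9 endocrine transcription factors, Gcg was at -0.49, Sst at -0.51, Pyy at -0.47 and Ghrl at -0.56 without overlap (exact permutation p = 0.1 for Sst and Ghrl and 0.2 for Gcg and Pyy), while Ppy (-0.28), Ins2 (0.11) and Iapp (0.02) overlapped. Against the mean of the granule genes, a choice made after seeing the data, Gcg, Sst, Ppy, Pyy and Ghrl were at -0.77 to -0.49 without overlap (exact permutation p = 0.1 to 0.2), and Ins2 and Iapp were at -0.10 and -0.19 with overlap. The direction for Ins2 and Iapp was therefore positive against both medians and negative against the mean.

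**Figure D3:**
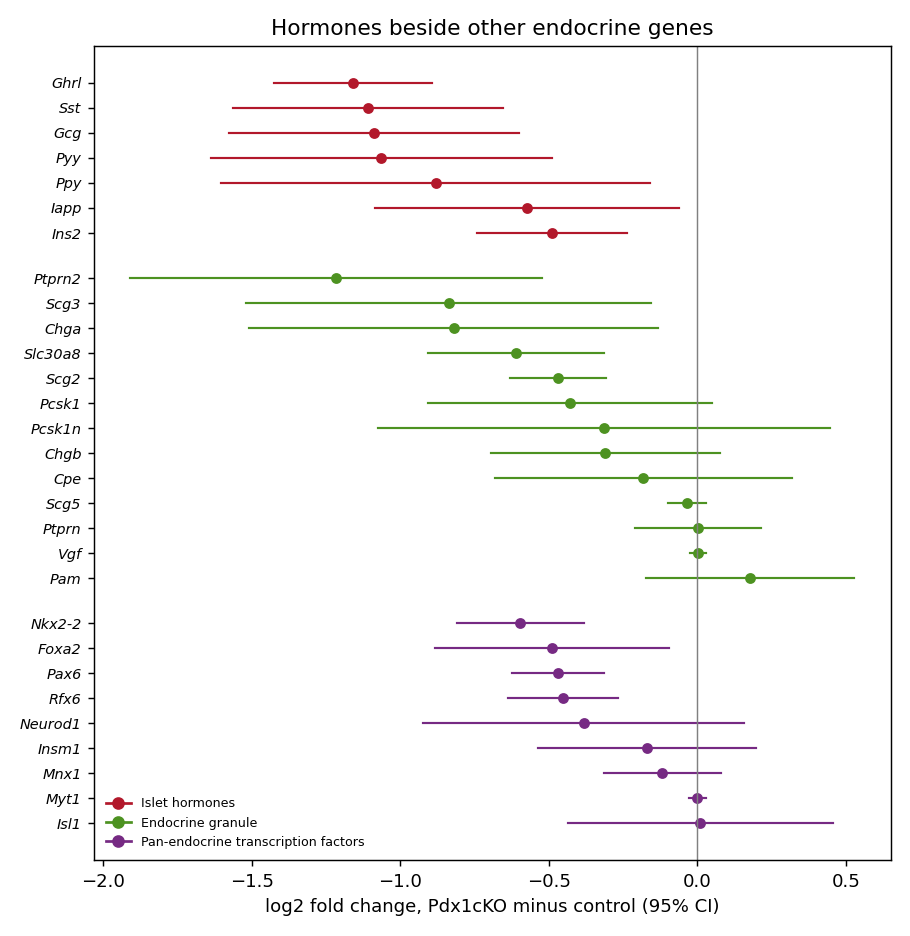
Limma log2 fold change, Pdx1cKO minus control, with its 95% confidence interval, for 7 hormones (red), 13 granule genes (green) and 9 endocrine transcription factors (purple). Ghrl, Sst, Gcg and Pyy lie between -1.16 and -1.06 and Iapp and Ins2 at -0.57 and -0.49, and all 7 hormone intervals lie below 0.

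The listed genes of beta cell function, only some of which sense glucose or incretins, did not share 1 direction. Of 10 measured, 3 were lower and 1 higher at an unadjusted p, against 5.04% and 5.29% of all genes, with a median log2 fold change of -0.11. Glp1r, the receptor for the incretin cut from the Gcg product, gave 197 and 182 for control tissue, and 74.2, 89.5 and 92.5 for the mutants (log2 fold change -1.15, standard error 0.122, limma adjusted p = 0.183). The groups were far apart, as for Gcg itself. Trpm5, a calcium-activated cation channel, was at 73.1 and 71.4 against 89.7, 84.1 and 84.1, a log2 fold change of 0.25 (limma adjusted p = 0.236). Receptors for the hormones, which many tissues carry, showed 0 of 14 lower and 0 higher at an unadjusted p, and their median log2 fold change was 0.01. The 2 with the smallest p were Ghsr, the ghrelin receptor, at -0.15, and Sstr4, a somatostatin receptor, at 0.39 (limma adjusted p = 0.515 for both).

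Because Sst, Pyy, Ghrl and Gcg are also made in the gut wall, hormones of stomach and intestine were read beside them. Of 8 measured genes of enteroendocrine cells, 1 was lower and 1 higher at an unadjusted p, against 5.04% and 5.29% of all genes. Cck, which encodes cholecystokinin, gave 34.3 and 38.3 for control tissue, and 31.9, 31.2 and 30.3 for the mutants (log2 fold change -0.22, limma adjusted p = 0.375), close to the lowest signals of the array. Hdc, the histamine-forming enzyme of gastric endocrine cells and of mast cells and other blood cells, was at 185 and 86.5 against 406, 352 and 315 (log2 fold change 1.49, limma adjusted p = 0.361). Gast, the gastrin gene, named after its values were seen, was at 247 in control 2 and at 42.0 to 45.3 in the other 4 arrays. In control 2, with that gastrin signal, and in control 1, Ghrl was at 136 and 148 and Pyy at 952 and 1137. Sst was at 1141 and 1111 and Gcg at 2650 and 2594. Without control 2 the log2 fold changes were -1.22 for Ghrl, -1.19 for Pyy, -1.09 for Sst and -1.07 for Gcg. Whether gut tissue had a part in the hormone values was not tested.

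Listed transcripts of liver, granulocytes, erythroid cells and the exocrine pancreas also differed between the groups, while those of stomach, intestine and neurons were not called. Of 10 liver genes, 8 were higher at an unadjusted p, against 5.29% of all genes, with a median log2 fold change of 2.71. Their summed intensity was 5098 and 6611 for control tissue, against 33992, 41554 and 15859 for mutants 1, 2 and 3. Alb, for serum albumin, gave 1542 and 2177 for control tissue, and 5346 to 7865 for the mutants. All 9 granulocyte genes (median log2 fold change 2.23, summed intensity 447 and 458 against 1334 to 3606) and all 4 measured erythroid genes (1.59, with 353 and 346 against 798 to 2412) were higher at an unadjusted p. Of 12 digestive enzymes, 12 were lower at an unadjusted p, against 5.04% of all genes. Their median log2 fold change was -2.54 and their summed intensity 102193 and 67986 against 15492, 18733 and 26393. The hormones were lowest in Pdx1cKO mouse 3 in 7 of 7 cases, the mutant with the least liver and the most enzyme signal. The share of all genes that were lowest in this mouse was not computed, so the count has no background. Hormone values of the same mouse are also not independent. Stomach genes (12 measured, summed intensity 16850 in control 2 and 617 to 1187 elsewhere) and intestinal genes (11 measured, 5118 in control 2 and 683 to 1623 elsewhere) showed 0 of 23 lower or higher at an unadjusted p, and neuronal genes 0 of 7, with a summed intensity of 644 and 814 for control tissue, against 2157, 660 and 1465 for the mutants. The part of these tissues in the lower hormone values was not tested.

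**Figure D4:**
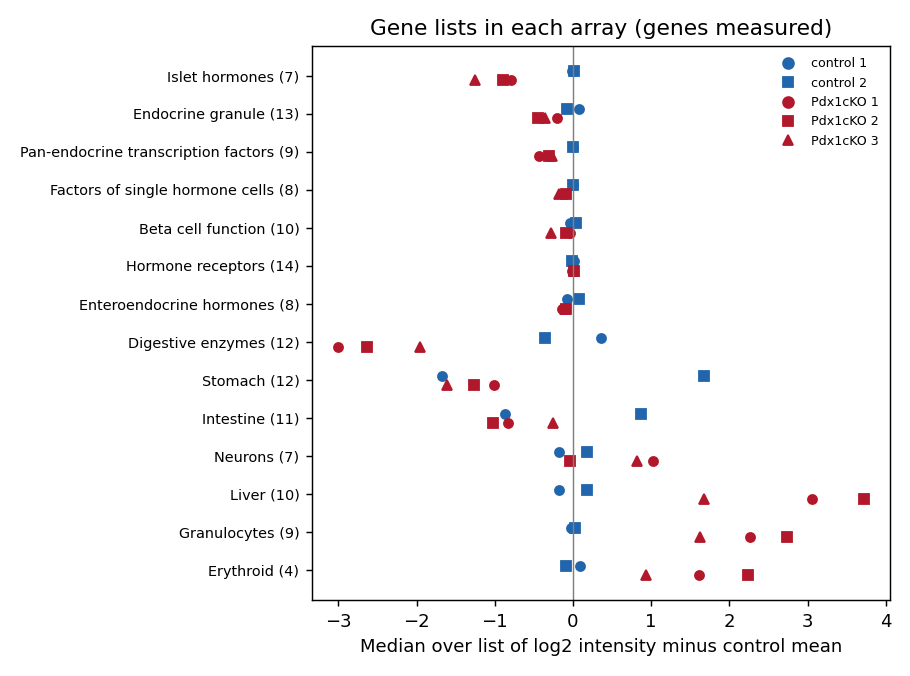
For each array, the median over the genes of a list, on the log2 scale relative to the mean of both controls (control in blue, Pdx1cKO in red, 1 symbol per mouse number, genes measured in parentheses). Islet hormones lie at -0.80, -0.89 and -1.25 in the 3 Pdx1cKO arrays, between the digestive enzymes further to the left and the other endocrine lists nearer to 0.

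The genes whose values over the 5 arrays were most like those of a hormone were listed by the root mean square distance of log2 values from the control mean, among the 9969 genes at or above the median level. Nearest to Ins2 were Capg, Fam241b, Foxa2, Sh2d4a and Ildr1, at distances of 0.0493 to 0.0604. Foxa2 was also one of the 9 endocrine transcription factors. Iapp was the hormone nearest to Ins2, at place 104 (0.151), and the other 5 were at 0.363 to 0.522. Nearest to Gcg were Rab3d, Spint2, Esrp1, Llgl2 and Galnt7, at 0.103 to 0.137, with Pyy at place 7 (0.141). Nearest to Sst was Ghrl, at 0.0944, followed by Llgl2, Gstm1, Prss8 and Pyy at 0.102 to 0.152. The distances are computed from the same 5 values per gene as the ratios and add no separate evidence on the hormones.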

How the data were processed

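RNA of whole pancreas was hybridised to Mouse Gene 1.0 ST arrays (1 colour). The values deposited by the authors, made with GeneSpring GX 12.1, are linear intensity values already normalized between arrays. Their background correction, normalization method and probe summary are not stated in the paper or labels, and no detection calls were used. Values tied exactly between arrays in 67.7% of 28853 probe sets and in 0 hormone probe sets. The number of arrays limits the precision.

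After log2 (no pseudocount), probe sets of the same gene were averaged, which turned 21789 with a single symbol into 19938 genes. Another 1621 had several symbols and 5443 none. Entrez IDs matched RefSeq's GRCm38.p6 table for 21698. Groups came from the titles and were compared with limma 3.58.1 (R 4.3.3), adjusted over all genes by Benjamini-Hochberg at 0.05 and tested on simulated data. Ratios were tested by exact permutation (Python 3.11.15). Each mouse is 1 replicate, and the p-values measure the spread between these arrays.

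Members and gene lists were chosen with earlier results of these data known. The genes to name were the hormones, Pdx1, the 2 members of each other list with the smallest p, the brightest member of each list of neighbouring tissue, and the 5 genes nearest to Ins2, Gcg and Sst. Values of the neighbouring tissues' genes are given as sums and medians except for Alb, Th and Npy. Alternatives tried were other scalings (array median, quantile), filters on dim genes, other probe set choices, other eBayes settings, weights per array, Student's test as in the methods, a block for the replicate number, and leaving out each mouse. Pdx1cKO mouse 3 alone against the controls and the mean of the granule genes were added after seeing the data.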

Additional observations from a re-analysis of the deposited data

How the results depend on the processing

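The log2 fold changes of the 7 hormones were negative in all 112 values under the alternatives. For each hormone no mutant overlapped a control, so only the array median and quantile scalings could have changed a sign. The other alternatives could change only the size or the p-value. Leaving out each mouse gave a median hormone log2 fold change of -1.13 to -0.92, 0 to 1 hormones lower at an adjusted p, and 0 to 2072 genes lower and 0 to 1604 higher. All of these calls came from leaving out a control (1783 lower and 1604 higher without control 1, and 2072 and 995 without control 2), where the spread of a single control has to be taken from the mutants. With Pdx1cKO mouse 3 alone the median was -1.25. The methods' t-test called 7 genes lower and 3 higher after Benjamini-Hochberg adjustment, with 0 hormones, and 5 hormones lower at an unadjusted p, against 4.05% of all genes. Genes lower at an unadjusted p numbered 501 above the median level, 1591 over every probe set, 391 with array weights (241 higher), 605 with the replicate block and 589 with Pdx1cKO mouse 3 alone. With the replicate number as a block, which uses only mice 1 and 2 of each group, the median hormone log2 fold change was -0.92, with 0 hormones lower at an adjusted p and 5 at an unadjusted p, against 3.03% of all genes. Same-numbered mice did not deviate together (correlations of 0.033 and -0.003 over genes). Of 168 ratio values under the alternatives, 167 moved by less than 1 SD between mice, the larger SD of the 2 groups. Leaving out 1 mouse cannot move a ratio that far, and each hormone had a single probe set. Only quantile normalization and Pdx1cKO mouse 3 alone could have moved a ratio further. A change of sign was seen in 18 of the 168 values, all in pairs whose groups overlapped. Pairs without overlap could have changed sign only under quantile normalization. The causes were not tested.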

Other observations

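Npy, the third gene of the family of Ppy and Pyy, which encodes the neuropeptide Y of sympathetic neurons and adrenal cells, gave 89.2 and 142 for control tissue, against 895, 116 and 335 for mutants 1, 2 and 3. It was high in mice 1 and 3 and not in mouse 2, and its log2 fold change was 1.54 (standard error 1.02, limma adjusted p = 0.515). Th, the enzyme that starts catecholamine synthesis, followed the same mice, with 56.3 and 44.1 for control tissue, against 378, 70.4 and 260 for the mutants. Ppy and Pyy did not follow them, being highest in mouse 1 and lowest in mouse 3.

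Slc2a2, the glucose transporter of both beta cells and hepatocytes, gave 125 and 162 for control tissue, and 174, 318 and 140 for the mutants, highest in mouse 2, which had the highest summed liver intensity (41554). Ero1b, an oxidase of the endoplasmic reticulum that folds proinsulin and is also active in acinar cells, was at 231 and 127 against 61.9, 78.4 and 74.6, a log2 fold change of -1.27 (limma adjusted p = 0.346). These genes were chosen after their values were seen.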
